A study of Mus musculus with 6 samples.

Results

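The SLC25 family holds the carriers that move metabolites across the inner mitochondrial membrane. The rows whose gene symbol is Slc25a followed by a number were taken, 47 of the 30236 genes listed for mouse liver tumors. RNA was sequenced from 3 tumors of WT and 3 of Top1mt -/- mice, called KO here, all of strain C57BL/6 and, by the study's methods, male littermates. Both genotypes were given diethylnitrosamine, a liver carcinogen, on day 14 after birth. From week 8 they were given carbon tetrachloride, a liver toxin, for 14 weeks, and tumors were collected at 22 weeks. The KO mice are of a whole-body knockout line. Each library is bulk tumor tissue, in which fewer cells of a type and less RNA per cell cannot be told apart. The study calls the tumors independent, without saying which mouse each came from, and p-values measure only the spread between these tumors.

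The inner membrane lets few charged molecules through. Adenine nucleotides, phosphate, citrate, amino acids, acylcarnitines, cofactors and iron each cross it through carriers, most of them of this family, which in liver tie respiration to the urea cycle, fat synthesis and heme synthesis. The proteins are encoded in the nucleus, made in the cytosol and put into the inner membrane by the TIM22 complex. TOP1MT is a DNA topoisomerase of mitochondria. The comparison asks whether carrier transcripts differ between tumors of both genotypes.

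Each value is a log2 expression value that the authors had normalized across libraries, so a difference of 1 is a 2-fold change. The transform is not named, though the values resemble a regularized log, and the depth of each library is unknown. Wherever values per library are listed, they stand in the order of replicates 1, 2 and 3. Top1mt itself lay at 7.71, 5.99 and 8.01 in the WT tumors and 5.58, 6.41 and 6.32 in the KO tumors. Of the libraries labelled WT, replicate 2 went against that label, since 2 of the KO tumors had more Top1mt. Top1mt signal also remained in all 3 KO libraries, well above the lowest values of the table, and the values per gene do not show whether it comes from the deleted part of the gene. Every direction given here rests on the labels. KO replicate 1 stood apart through Gm42418, a transcript at 22.005 there and at 11.66 to 15.80 elsewhere. Alb, the main product of hepatocytes, lay between 20.26 and 21.12 in all libraries. Summed levels of 7 of 8 cell type marker lists overlapped between the genotypes, and that of the red cell list did not.

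The carriers spanned a wide range of levels. To set genes side by side, the log2 of exonic length in kb was subtracted from the log2 value. These levels per length ran from 11.75 for Slc25a47 to -2.62 for Slc25a54, and all 47 carriers had a length in the GENCODE annotation. Slc25a47, a carrier known for its expression in liver, had levels per length of 11.68, 12.47 and 10.91 in the WT tumors and 11.38, 12.51 and 11.53 in the KO tumors. Slc25a5, a widely expressed ADP/ATP carrier, had 11.50, 11.72 and 11.37 in the WT tumors and 11.56, 11.57 and 11.47 in the KO tumors. The values of both overlapped, so these 2 carriers cannot be put in order, whereas Slc25a5 lay above the next carrier in every library.

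Next came Slc25a39, which imports glutathione, with a mean level per length of 10.56, and Slc25a1, which exports citrate for fat synthesis, with 10.48. Slc25a39 had 10.41, 10.53 and 10.47 in the WT tumors and 10.55, 10.72 and 10.68 in the KO tumors. For Slc25a1 these were 10.31, 10.57 and 10.46 in the WT tumors and 10.64, 10.56 and 10.34 in the KO tumors. Their ranges overlapped. Slc25a13, the aspartate/glutamate carrier known as citrin, followed with 9.42, and Slc25a15, the ornithine carrier of the urea cycle, with 9.13. Slc25a13 had 9.59, 9.47 and 9.47 in the WT tumors and 9.34, 9.60 and 9.02 in the KO tumors, and Slc25a15 had 9.43, 9.10 and 9.24 in the WT tumors and 9.30, 8.997 and 8.74 in the KO tumors, again with overlap. With the longest transcript as the length, 5 of these 6 stayed among the highest 6, and Slc25a10 took the place of Slc25a15.

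**Figure D1:**
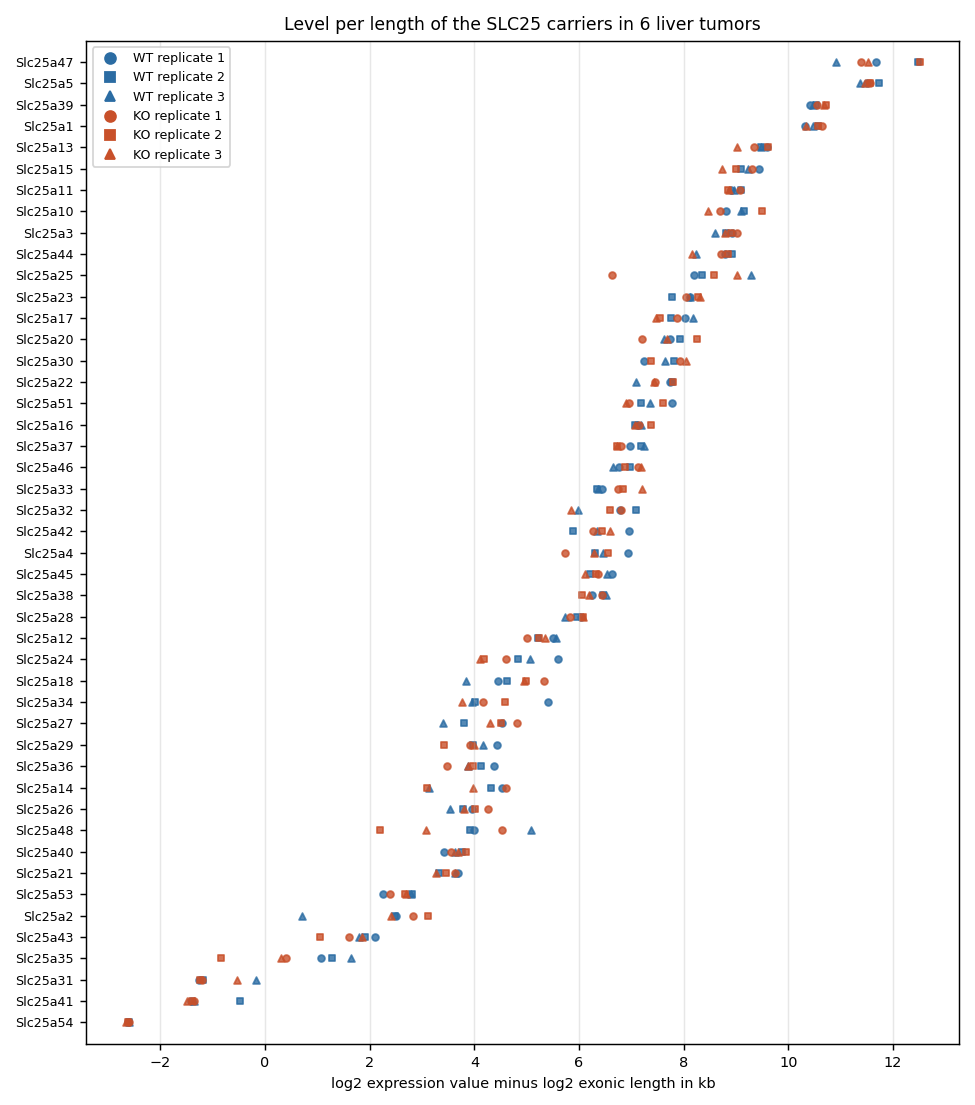
Each row is a carrier (46 of the 47 are shown) and each point one library, coloured by genotype, plotted as the log2 expression value minus the log2 of exonic length in kb. Slc25a47 and Slc25a5 lie at the top with means of 11.75 and 11.53, and Slc25a54 lies lowest at -2.62.

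At the other end, 6 carriers had a mean log2 value under 5. Slc25a54 lay between -1.83 and -1.76, among the lowest 25% of genes, and was not tested. Slc25a31, the ADP/ATP carrier of male germ cells, and Slc25a41 lay between -1.07 and 0.92. Slc25a2, Slc25a35 and Slc25a43 lay between 1.05 and 3.58. A regularized log would understate the fold changes of such weak genes, which was not tested here.

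The genotypes were compared with limma over the 22677 genes above the lowest 25% of means, of which 46 were carriers. No carrier passed an adjusted p of 0.05 (Benjamini-Hochberg over all genes tested), nor did any gene (0%), and every carrier had an adjusted p of 0.999. At an unadjusted p under 0.05 by limma there were 5 carriers, or 10.9%, against 4.34% of all genes tested. Of these 2 were higher in KO and 3 lower, against 1.79% and 2.56% of all genes. The 3 KO values lay all above or all below the 3 WT values in 6 carriers, or 13%, against 8.28% of all genes. By direction 3 lay above, against 3.95% of all genes, and 3 below, against 4.33%. None of them is called changed.

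Across the family the difference was small. The median log2 fold change, taken as KO minus WT throughout, was -0.10 over the carriers and -0.015 over all genes tested, with 17 carriers higher and 29 lower. Without WT replicate 2, the library that went against its label, the median was -0.011, with 22 of the 45 then tested higher and 23 lower. Without KO replicate 1 it was -0.088, with 20 higher and 26 lower. Whatever its sign, the median size was 0.20 for the carriers and 0.21 for all genes. For 34 of the 46 carriers the 95% interval of the fold change lay within a 2-fold change either way.

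**Figure D2:**
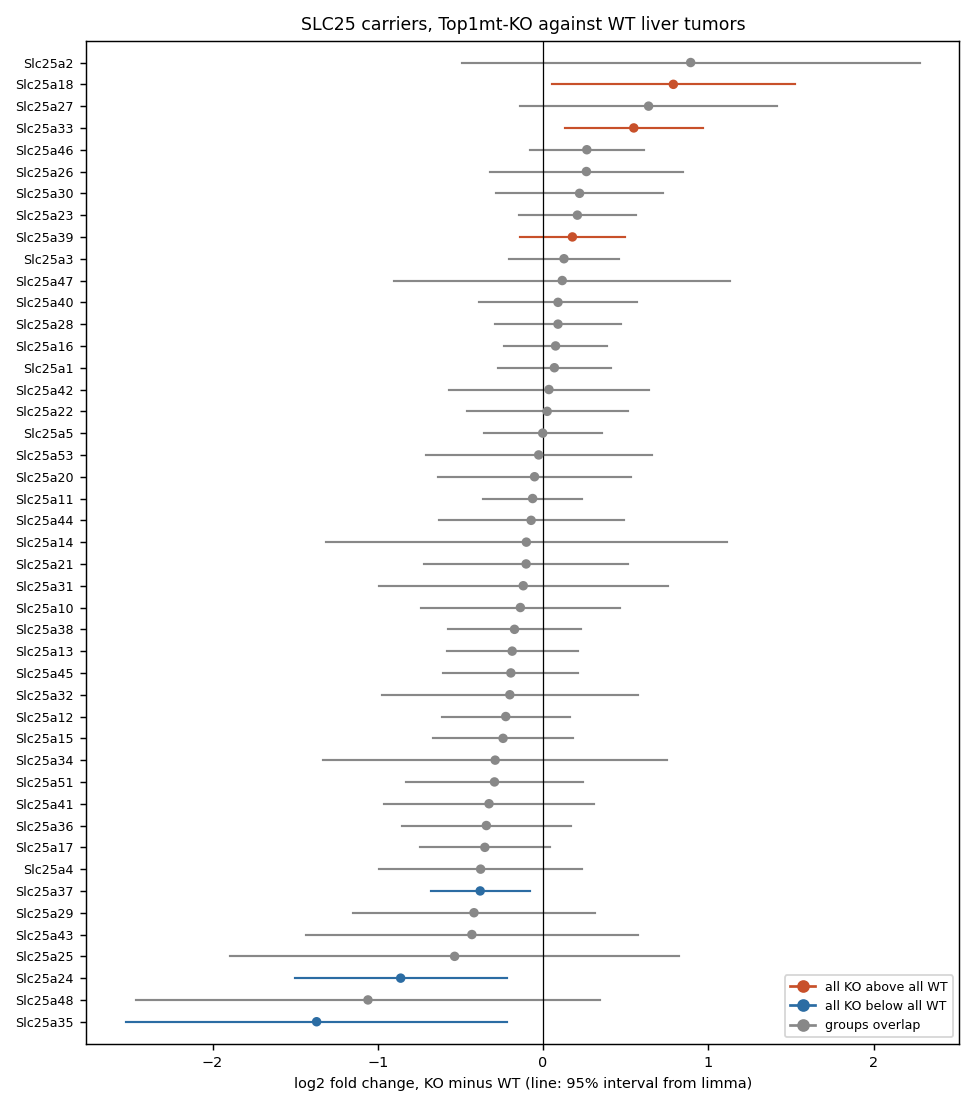
Points are the log2 fold changes (KO minus WT) of 45 of the 46 carriers tested, and lines are their 95% intervals from limma. Colours mark the 3 carriers whose KO values all lie above WT and the 3 whose KO values all lie below, from -1.37 for Slc25a35 to 0.79 for Slc25a18.

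The list of carriers of adenine nucleotides and phosphate includes those that serve ATP synthesis directly. It also holds the peroxisomal Slc25a17, Slc25a42 with its relative Slc25a16, and the weakly expressed Slc25a31, Slc25a41 and Slc25a43. Its counts are therefore not those of ATP synthesis alone. Of 12 tested, 4 were higher in KO and 8 lower, with a median log2 fold change of -0.22, and 1 had an unadjusted p under 0.05 by limma. That one was Slc25a24, a calcium-regulated carrier that exchanges ATP-Mg for phosphate and so sets the matrix pool of adenine nucleotides. Its log2 values were 7.37, 6.61 and 6.83 in the WT tumors and 6.38, 5.97 and 5.88 in the KO tumors. Every KO tumor lay below every WT tumor, by 0.23 at the nearest. The WT tumors averaged 6.94 ± 0.39 (SD, n = 3) against 6.08 ± 0.26 (SD, n = 3) for KO, a level of 0.55 times that of WT. The log2 fold change was -0.86 with a 95% interval from -1.50 to -0.22 (limma's unadjusted p = 0.0147, adjusted p = 0.999). It was -0.64 without WT replicate 1 and -1.03 without WT replicate 2. Limma's unadjusted p was 0.0594 without WT replicate 1 and 0.0502 without KO replicate 3, both above 0.05.

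In the relatives of Slc25a24 that share its substrates, the genotypes overlapped. Slc25a23 lay at 10.52, 10.18 and 10.52 in the WT tumors and 10.44, 10.68 and 10.72 in the KO tumors, and its log2 fold change was 0.21 with a 95% interval from -0.14 to 0.56. Slc25a25 lay at 11.18, 11.32 and 12.26 in the WT tumors and 9.60, 11.55 and 11.99 in the KO tumors. KO replicate 1 alone was low here, and the log2 fold change of -0.54 with a 95% interval from -1.89 to 0.82 became 0.19 without it. Within a library Slc25a23 minus Slc25a24 was 3.15, 3.57 and 3.68 in the WT tumors and 4.07, 4.71 and 4.84 in the KO tumors on the log2 scale. The 2 genes lay further apart in every KO tumor, by 1.07 on average, with p = 0.1 by an exact two-sided permutation test, the lowest that 3 tumors against 3 can give. After adjustment over the 14 pairs of related carriers compared, this p was 0.35.

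Slc25a3, which supplies phosphate for ATP synthesis, lay at 11.39, 11.28 and 11.08 in the WT tumors and 11.48, 11.37 and 11.27 in the KO tumors, a log2 fold change of 0.13 with a 95% interval from -0.20 to 0.46. Slc25a5 lay at 12.22, 12.44 and 12.09 in the WT tumors and 12.28, 12.29 and 12.19 in the KO tumors, a log2 fold change of -0.0024 with a 95% interval from -0.36 to 0.35. For both, the interval leaves out a 2-fold change in either direction. Slc25a5-ps, a processed copy, lay between 0.59 and 2.55, and how reads were split between Slc25a5 and its near-identical copies is uncertain. Slc25a4, the ADP/ATP carrier of heart and muscle, lay at 8.18, 7.54 and 7.70 in the WT tumors and 6.96, 7.79 and 7.53 in the KO tumors. KO replicate 1 was lowest, the groups overlapped, and the log2 fold change of -0.38 with a 95% interval from -0.99 to 0.24 became -0.14 without that library. Slc25a4 minus Slc25a5 within a library averaged -4.45 ± 0.43 (SD, n = 3) in WT tumors against -4.82 ± 0.44 (SD, n = 3) in KO tumors on the log2 scale and overlapped (exact two-sided permutation test, p = 0.4, adjusted p = 0.7). Its change of -0.38 became -0.13 without KO replicate 1.

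Slc25a42, which carries coenzyme A, and its relative Slc25a16 had log2 fold changes of 0.035 and 0.076, and both overlapped. Slc25a17, which sits in peroxisomes and not in mitochondria, lay at 9.54, 9.26 and 9.68 in the WT tumors and 9.39, 9.06 and 8.97 in the KO tumors. Its log2 fold change of -0.35 with a 95% interval from -0.75 to 0.040 had the lowest p of the carriers that overlapped (limma's unadjusted p = 0.0723). With one library left out the log2 fold change ran from -0.47 to -0.26, and without WT replicate 2 or KO replicate 1 the groups did not overlap.

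Slc25a33 carries pyrimidine nucleotides, which mitochondria need to make their own DNA and RNA. Its log2 values were 7.35, 7.26 and 7.28 in the WT tumors and 7.67, 7.76 and 8.12 in the KO tumors. The WT tumors were nearly alike, and the KO tumors all lay higher, by 0.31 at the nearest. The WT tumors averaged 7.30 ± 0.047 (SD, n = 3) against 7.85 ± 0.24 (SD, n = 3) for KO, a level of 1.46 times that of WT. The log2 fold change was 0.55 with a 95% interval from 0.13 to 0.97 (limma's unadjusted p = 0.0162, adjusted p = 0.999), and 0.41 without KO replicate 3, where limma's unadjusted p was 0.0548. Slc25a36, the other pyrimidine nucleotide carrier, lay at 7.63, 7.39 and 7.13 in the WT tumors and 6.73, 7.24 and 7.15 in the KO tumors, with overlap and a log2 fold change of -0.34 with a 95% interval from -0.86 to 0.17.

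Slc25a33 minus Slc25a36 within a library was -0.27, -0.12 and 0.15 in the WT tumors and 0.94, 0.52 and 0.98 in the KO tumors on the log2 scale. The balance of this pair lay further toward Slc25a33 in every KO tumor, by 0.89 on average (exact two-sided permutation test, p = 0.1, adjusted p = 0.35).

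The other carriers of cofactors and of acylcarnitines overlapped between the genotypes. Of the 7 tested with Slc25a33 in this group, 2 were higher in KO and 5 lower. Slc25a20, which imports acylcarnitines for fat burning, lay at 10.02, 10.21 and 9.91 in the WT tumors and 9.48, 10.54 and 9.95 in the KO tumors, a log2 fold change of -0.052 with a 95% interval from -0.64 to 0.53. Slc25a32, linked to folate and FAD, lay at 9.38, 9.69 and 8.58 in the WT tumors and 9.40, 9.19 and 8.45 in the KO tumors, with replicate 3 lowest in both genotypes. Slc25a51 imports NAD and had a log2 fold change of -0.29 with a 95% interval from -0.83 to 0.24, and without KO replicate 2 its groups did not overlap, at -0.52. Slc25a26, the carrier of S-adenosylmethionine, had one of 0.26. Of the 4 genes of the carnitine shuttle listed with Slc25a20 (Cpt1a, Cpt2, Crat and Slc22a5), 1 was higher in KO and 3 lower, all with overlap.

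The list of amino acid carriers had 3 of 10 members higher in KO and 7 lower, with a median log2 fold change of -0.18. It counts Slc25a48, whose substrate is less settled, among those lower. Slc25a18, which carries glutamate with a proton, was the one with an unadjusted p under 0.05 by limma. It lay at 5.38, 5.56 and 4.76 in the WT tumors and 6.26, 5.92 and 5.88 in the KO tumors. All KO tumors lay above all WT tumors, by 0.32 at the nearest. The WT tumors averaged 5.23 ± 0.42 (SD, n = 3) against 6.02 ± 0.21 (SD, n = 3) for KO, a level of 1.73 times that of WT. The log2 fold change was 0.79 with a 95% interval from 0.053 to 1.52 (limma's unadjusted p = 0.0387, adjusted p = 0.999), and 0.55 without WT replicate 3, the lowest library. It did not hold up well, since limma's unadjusted p was above 0.05 in 5 of the 6 fits with one library left out, from 0.0559 to 0.119, and 0.0531 with the replicate number as a block.

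Slc25a22, the other glutamate carrier and the more abundant per length (7.54 against 4.69 on the log2 scale), lay at 10.32, 10.35 and 9.67 in the WT tumors and 10.03, 10.37 and 10.02 in the KO tumors. Its log2 fold change was 0.025 with a 95% interval from -0.46 to 0.51, with overlap. Slc25a18 minus Slc25a22 within a library was -4.95, -4.79 and -4.91 in the WT tumors and -3.77, -4.45 and -4.14 in the KO tumors on the log2 scale. It lay higher in every KO tumor, by 0.76 on average (exact two-sided permutation test, p = 0.1, adjusted p = 0.35).

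The aspartate/glutamate carriers of the malate-aspartate shuttle, which brings reducing power of the cytosol into mitochondria, both overlapped. Slc25a12 had a log2 fold change of -0.23 with a 95% interval from -0.61 to 0.16, and Slc25a13 one of -0.19 with a 95% interval from -0.58 to 0.21. Their within-library difference, Slc25a12 minus Slc25a13, averaged -3.14 ± 0.17 (SD, n = 3) in WT tumors against -3.18 ± 0.39 (SD, n = 3) in KO tumors on the log2 scale. Of the 4 shuttle enzymes (Got1, Got2, Mdh1 and Mdh2), 1 was higher in KO and 3 lower, and Mdh1 alone did not overlap, with a log2 fold change of -0.10 (limma's unadjusted p = 0.477).

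Slc25a15, which brings ornithine to the urea cycle, lay at 11.92, 11.59 and 11.73 in the WT tumors and 11.80, 11.49 and 11.23 in the KO tumors, a log2 fold change of -0.24 with a 95% interval from -0.66 to 0.18. Slc25a2, the second ornithine carrier, had a far lower level per length (2.34 against 9.13) and log2 values of 2.95, 2.93 and 1.16 in the WT tumors and 3.29, 3.58 and 2.86 in the KO tumors. WT replicate 3 was low, and the groups overlapped. Slc25a2 minus Slc25a15 within a library averaged -9.40 ± 1.02 (SD, n = 3) in WT tumors against -8.27 ± 0.31 (SD, n = 3) in KO tumors on the log2 scale, without overlap (exact two-sided permutation test, p = 0.1, adjusted p = 0.35). Its change of 1.14 drew on WT replicate 3 and was 0.55 without it.

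Among 7 enzymes of ornithine and the urea cycle, 2 were higher in KO and 5 lower, and Oat alone had an unadjusted p under 0.05 by limma. Oat, which breaks down ornithine in the matrix, lay at 10.16, 9.69 and 10.65 in the WT tumors and 8.85, 8.85 and 9.26 in the KO tumors, without overlap. Its log2 fold change was -1.18 with a 95% interval from -1.75 to -0.60 (limma's adjusted p = 0.938). The basic amino acid carrier Slc25a29 had -0.42, Slc25a38, the glycine carrier of heme synthesis, -0.17, and Slc25a44, the carrier of branched-chain amino acids, -0.072 as log2 fold changes, all with overlap. Slc25a48, whose substrate is less settled, lay at 5.75, 5.67 and 6.83 in the WT tumors and 6.28, 3.96 and 4.84 in the KO tumors. KO replicates 2 and 3 lay below all other tumors, and KO replicate 1 did not, so the log2 fold change of -1.06 with a 95% interval from -2.47 to 0.35 became -1.69 without KO replicate 1 and -0.53 without KO replicate 2.

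**Figure D3:**
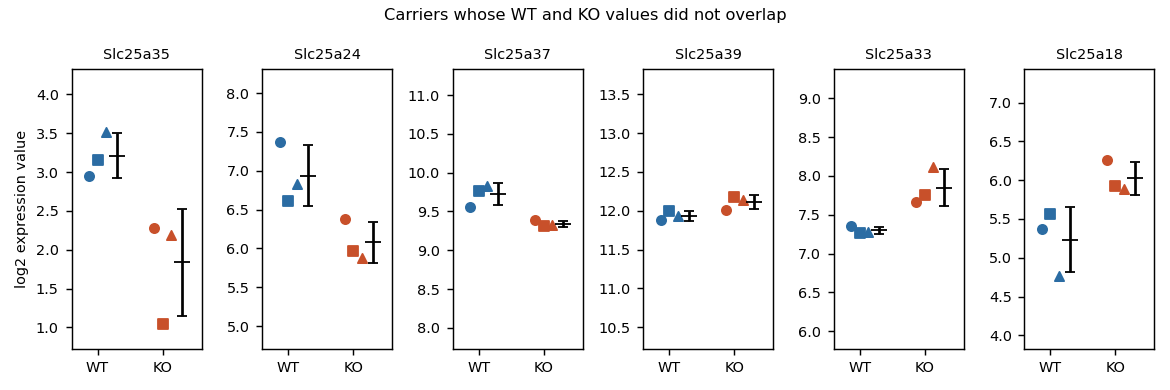
Log2 expression values of the 6 carriers whose WT and KO values did not overlap, 1 point per library, with mean and SD beside them. All panels span the same number of log2 units, so the gap of 0.021 between the genotypes in Slc25a39 can be set against that of 0.67 in Slc25a35.

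The iron and glutathione carriers held 2 of the 6 carriers without overlap. Slc25a37, or mitoferrin 1, brings iron into mitochondria and is best known from red cell precursors. It lay at 9.56, 9.77 and 9.83 in the WT tumors and 9.39, 9.31 and 9.32 in the KO tumors. The KO tumors were nearly alike and lay below all WT tumors, by 0.18 at the nearest. The WT tumors averaged 9.72 ± 0.14 (SD, n = 3) against 9.34 ± 0.040 (SD, n = 3) for KO, a level of 0.77 times that of WT. The log2 fold change was -0.38 with a 95% interval from -0.68 to -0.082 (limma's unadjusted p = 0.0188, adjusted p = 0.999). It was -0.36 without WT replicate 2 and -0.40 without KO replicate 1. Limma's unadjusted p was above 0.05 in several alternatives, at 0.0538 without WT replicate 2, 0.0718 without WT replicate 3 and 0.0526 without KO replicate 2. It was 0.0598 without the trend and 0.0690 with library medians centred.

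Red cell transcripts lay lower in KO along with Slc25a37. The summed log2 level of the 6 genes of that list was 11.88 to 12.81 in WT and 11.26 to 11.81 in KO. Of the 6 genes 5 were lower in KO, 3 of them with an unadjusted p under 0.05 by limma, and the globin genes Hba-a2 (-0.90) and Hbb-bs (-0.82) did not overlap. Alas2, which defines heme synthesis in red cell precursors, had a log2 fold change of 0.013, and no gene of the list fell under the filter on low values. The part of these cells in the values of Slc25a37 was not tested.

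Slc25a28, or mitoferrin 2, the widely expressed form, lay at 7.94, 7.86 and 7.63 in the WT tumors and 7.74, 7.99 and 7.97 in the KO tumors, a log2 fold change of 0.090 with a 95% interval from -0.29 to 0.47. Slc25a28 minus Slc25a37 within a library averaged -1.91 ± 0.29 (SD, n = 3) in WT tumors against -1.44 ± 0.18 (SD, n = 3) in KO tumors on the log2 scale and overlapped (exact two-sided permutation test, p = 0.2, adjusted p = 0.56). Alas1 and Fech, enzymes of heme synthesis, Iscu, which serves iron-sulfur cluster assembly, and Tfrc, the transferrin receptor, all overlapped.

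Slc25a39 and Slc25a40 both serve the import of glutathione. Slc25a39 lay at 11.88, 11.99 and 11.93 in the WT tumors and 12.01, 12.18 and 12.14 in the KO tumors. Its genotypes were apart by 0.021, and they overlapped after quantile normalization. The log2 fold change was 0.18 with a 95% interval from -0.14 to 0.49 (limma's unadjusted p = 0.231). Slc25a40 had one of 0.090 with a 95% interval from -0.39 to 0.57, with overlap. Slc25a39 minus Slc25a40 averaged 5.26 ± 0.11 (SD, n = 3) in WT tumors against 5.35 ± 0.062 (SD, n = 3) in KO tumors on the log2 scale, and this difference overlapped too (exact two-sided permutation test, p = 0.3, adjusted p = 0.6).

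Carriers of di- and tricarboxylates feed fat synthesis and the malate-aspartate shuttle. None of the 4 kept the genotypes apart, and their median log2 fold change was -0.083. Slc25a1 had a log2 fold change of 0.068 with a 95% interval from -0.28 to 0.41, Slc25a11, the oxoglutarate/malate carrier, one of -0.063 with a 95% interval from -0.36 to 0.24, and Slc25a21, an oxodicarboxylate carrier, one of -0.10 with a 95% interval from -0.72 to 0.51. Slc25a10, the dicarboxylate carrier, lay at 10.60, 10.94 and 10.88 in the WT tumors and 10.49, 11.28 and 10.25 in the KO tumors. KO replicate 2 was the highest of all tumors and KO replicate 3 the lowest, and without KO replicate 2 the KO tumors lay below the WT tumors, at a log2 fold change of -0.44.

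KO replicate 2 was also the highest library in each of 5 genes listed for citrate and fat synthesis (Cs, Acly, Me1, Acaca and Fasn), which was seen after the values were known. Fasn, fatty acid synthase, lay at 14.96, 15.47 and 14.86 in the WT tumors and 15.02, 16.37 and 14.50 in the KO tumors, and Me1, malic enzyme, at 10.08, 9.56 and 9.65 in the WT tumors and 9.21, 11.27 and 9.53 in the KO tumors. All 5 were higher in KO on average, with KO replicate 2 in that average, with log2 fold changes from 0.094 to 0.35, and all overlapped. In Fasn, Acly and Me1 the lowest library was a KO tumor too, and in Cs and Acaca it was a WT tumor. Slc25a20 above likewise had its highest value in KO replicate 2. The part of that library in the spread of these carriers and in the averages of the 5 genes was not tested.

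The relatives of the uncoupling proteins, Slc25a14, Slc25a27 and Slc25a30, overlapped. Slc25a27 lay at 6.50, 5.77 and 5.37 in the WT tumors and 6.79, 6.48 and 6.28 in the KO tumors, and WT replicate 1 alone reached into the KO range. Its log2 fold change was 0.64 with a 95% interval from -0.14 to 1.42, and 0.95 without WT replicate 1, where the groups lay apart, but 0.38 without WT replicate 3. Slc25a14 had -0.10 and Slc25a30 0.22. Of the family members under other symbols, Ucp1, the heat-producing protein of brown fat, lay between -1.25 and -0.88 and was not tested. Mtch2, a relative in the outer membrane, lay at 10.84, 10.96 and 10.82 in the WT tumors and 11.03, 11.02 and 11.01 in the KO tumors, without overlap but with a log2 fold change of only 0.15 (limma's unadjusted p = 0.248). The other 3 tested, Ucp2, Ucp3 and Mtch1, overlapped.

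Among carriers with less defined roles, 2 of 6 tested were higher in KO and 4 lower. Slc25a35, which has no settled substrate, lay at 2.95, 3.15 and 3.52 in the WT tumors and 2.28, 1.05 and 2.19 in the KO tumors. All KO tumors lay below all WT tumors, by 0.67 at the nearest, the widest gap of the 6 carriers without overlap. The log2 fold change was -1.37 with a 95% interval from -2.52 to -0.22 (limma's unadjusted p = 0.0256, adjusted p = 0.999), and -0.97 without KO replicate 2. Limma's unadjusted p was then 0.101, and it was 0.0712 without WT replicate 3. The number of reads behind values this low is unknown. Slc25a34, its relative, lay at 6.81, 5.44 and 5.37 in the WT tumors and 5.58, 6.003 and 5.17 in the KO tumors, with overlap. Slc25a46, which sits in the outer membrane and shapes mitochondria, had a log2 fold change of 0.26 with a 95% interval from -0.082 to 0.61, and Slc25a45 and Slc25a53 had -0.20 and -0.027, all with overlap.

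Slc25a47, the carrier with the highest mean level per length, lay at 13.25, 14.05 and 12.49 in the WT tumors and 12.96, 14.09 and 13.10 in the KO tumors. Replicate 2 was highest in both genotypes, and the log2 fold change of 0.12 with a 95% interval from -0.90 to 1.13 leaves a 2-fold higher level in KO possible. With one library left out it ran from -0.27 to 0.51. Slc25a45 minus Slc25a47 averaged -5.34 ± 0.95 (SD, n = 3) in WT tumors against -5.65 ± 0.59 (SD, n = 3) in KO tumors on the log2 scale and overlapped (exact two-sided permutation test, p = 0.8, adjusted p = 0.8).

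**Figure D4:**
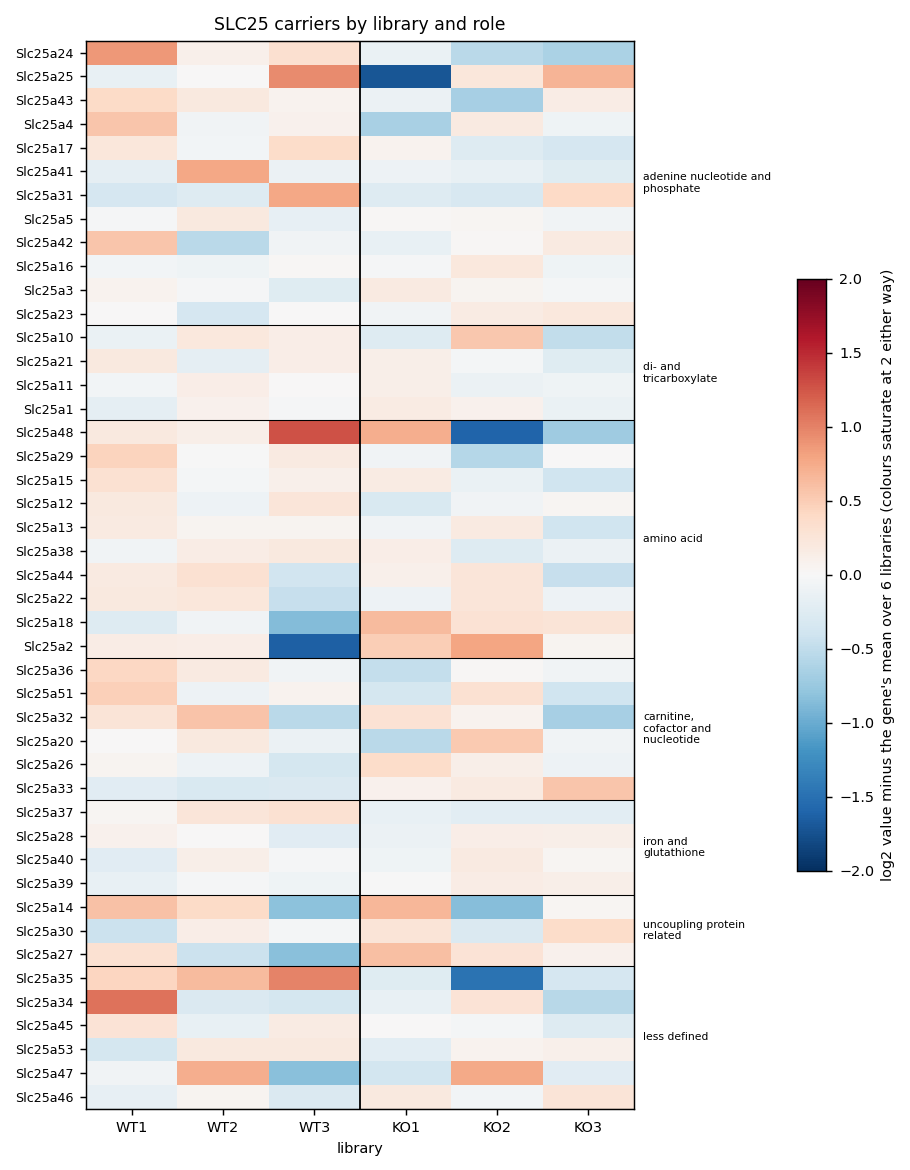
Rows are 45 of the 46 carriers tested, grouped by role, and columns the 6 libraries. Colour gives each log2 value minus the mean of the gene over the libraries and shows single tumors standing out, such as KO replicate 1 in Slc25a25 at 9.60 and KO replicate 2 in Slc25a48 at 3.96.

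The carriers varied between tumors of one genotype about as much as other genes of like level. The median SD within a genotype was 0.27 for the 46 carriers and 0.38 for all genes tested, and among genes with a mean above 5 it was 0.23 for 41 carriers and 0.26 for 12346 genes. The range over the 6 libraries was above 2 log2 units in 4 carriers, Slc25a48, Slc25a25, Slc25a35 and Slc25a2, and under 0.5 in 11. KO replicate 3 held the lowest value of 12 carriers, and it was lowest in 22.4% of all genes tested.

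Of the 14 pairs of related carriers, 4 had within-library differences that did not overlap between the genotypes, and 10 overlapped. The share among other gene pairs was not computed, and the pairs were chosen with earlier results known, so the count is only a description. The 4 were Slc25a23 with Slc25a24, Slc25a33 with Slc25a36, Slc25a18 with Slc25a22, and Slc25a2 with Slc25a15. The first 3 each hold a carrier whose own groups lay apart, so they add no separate result. The last holds the weakly expressed Slc25a2, and its change of 1.14 was 0.55 without WT replicate 3. With a lowest p of 0.1, no pair could pass.

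**Figure D5:**
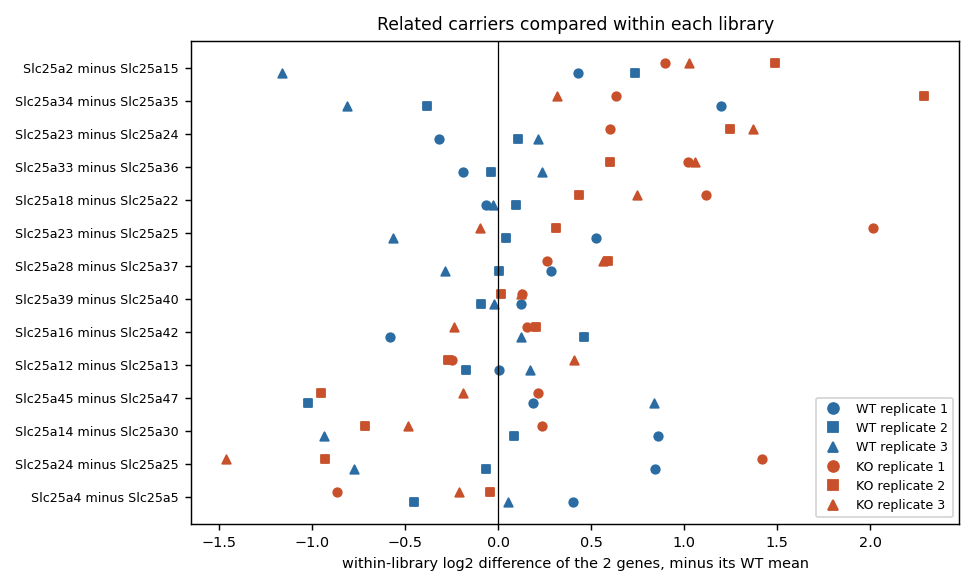
Each row is a pair of related carriers and each point one library, plotted as the log2 difference between the 2 genes within that library minus the WT mean of the pair. In 4 pairs the KO points all lie right of the WT points, with mean shifts from 0.76 to 1.14. The side depends on which gene of a pair is subtracted, so a shared side is no shared direction.

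The route by which carriers reach the inner membrane, and carriers of other families, were measured as well. Of 9 genes of the TIM22 route (Tomm70a, Timm8a1, Timm8b, Timm9, Timm10, Timm10b, Timm13, Timm22 and Agk), 5 were higher in KO and 4 lower, with a median log2 fold change of 0.077. Of 7 inner membrane carriers outside the family (Mpc1 and Mpc2, which import pyruvate, and the sideroflexins Sfxn1 to Sfxn5), 3 were higher and 4 lower, with a median of -0.016. In both lists every gene overlapped.

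Bile duct and stellate cell markers were mixed between the genotypes. Of 5 bile duct genes 3 were lower in KO, and Krt19 (-2.68) and Epcam (-1.19) did not overlap. The others, Sox9 (0.15) and Spp1 (0.045), were higher in KO, with overlap. The summed log2 level of that list, led by Spp1, overlapped, at 11.58 to 12.62 in WT and 11.70 to 12.58 in KO. Of 6 stellate cell genes 5 were lower in KO, among them Lrat (-0.79, limma's unadjusted p = 0.0259). Acta2 was higher (0.39), and all 6 overlapped. Their summed level overlapped too, at 11.79 to 13.45 in WT and 11.04 to 13.16 in KO. No gene of either list lay under the filter on low values. Slc25a24, Slc25a35 and Slc25a37 lay lower in KO, as did some of these markers, and the part of these cells in the carrier values was not tested.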

How the data were processed

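Genotype and replicate of the 6 tumor libraries (3 WT, 3 KO) came from the sample titles. The deposited table lists log2 expression values by gene symbol, made by the authors from featureCounts output through DESeq2. Trimming was with Trimmomatic, and uniquely mapped reads were kept. The paper names BWA and Mm 8 and the submitters' processing notes STAR 2.5.1 and GRCm38, so no coordinates are given. The transform is not given in the sources used here. Values ran from -2.24 to 22.0. They are not counts, so limma took the place of DESeq2. Unnamed columns (3) were not used, and 5 symbols were repeats.

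The genotypes were tested by lmFit and eBayes with a trend (limma 3.58.1, R 4.3.3), with Benjamini-Hochberg adjustment over genes above the lowest 25% of means and a threshold of 0.05. Intervals are limma's unadjusted 95% intervals. Differences between related genes were tested by exact two-sided permutation over 20 regroupings, which allow no p below 0.1, and adjusted over 14 pairs. Lengths were the union of exons in GENCODE M21. The fit was run on simulated independent normal values with a known shift, which checks the estimated shift and not the power with these tumors. Alternatives were a fit without trend, quantile normalization, centred medians, no filter, a filter at the median, the replicate block and libraries left out.

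Members, lists and pairs were chosen with earlier results of these data known. Values per library are given for carriers with an unadjusted p under 0.05 or without overlap, most members of the pairs described and the 6 highest per length. Other carriers so shown, and genes of the lists that overlap, were picked after their values were seen. Some genes that were measured are not reported here one by one.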

Additional observations from a re-analysis of the deposited data

How the results depend on the processing

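No carrier passed an adjusted p of 0.05 by limma in any alternative, and 2 to 6 had an unadjusted p under 0.05. That count, 5 as reported, was 4 without the trend, 5 with quantile normalization, 4 with library medians centred, 5 without a filter and 4 with a filter at the median. Among all genes tested, 3.32% to 4.62% had such a p there. With one library left out the count of carriers ran from 2 to 6, against 3.79% to 5.98% of all genes. It was 2 of 46 without WT replicate 3 (Slc25a24 and Slc25a33), against 4.07% of all genes. It was also 2 of 46 without KO replicate 3 (Slc25a35 and Slc25a37), against 3.79% of all genes. The number of carriers without overlap, 6 as reported, was 6 with quantile normalization, 8 with library medians centred and 5 with a filter at the median. Of all genes tested, 8.44%, 8.70% and 8.49% did not overlap there. Slc25a29 took the place of Slc25a39 with quantile normalization. With one library left out the number of carriers ran from 8 to 13, where 15.9% to 21.5% of all genes did not overlap. It was 10 without WT replicate 1, 13 without WT replicate 2, 13 without KO replicate 1, 12 without KO replicate 2 and 10 without KO replicate 3. Without both WT replicate 2 and KO replicate 1, an alternative chosen after seeing the data, it was 20, where 33.7% of all genes did not overlap. Fewer tumors make overlap rarer by construction. The median log2 fold change ran from -0.12 to -0.011 with one library left out, and was -0.077 with quantile normalization and -0.046 with medians centred. The replicate number as a block gave 4 carriers with an unadjusted p under 0.05 by limma, against 4.02% of all genes. It gave 0 with an adjusted p under 0.05. Deviations from the group means correlated at -0.12, -0.076 and 0.052 between libraries of replicates 1, 2 and 3, so that sharing a number is no evidence of pairing.

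The 6 carriers without overlap kept their direction in each alternative run for them. With libraries left out this was fixed in advance, since all KO values lay on one side of all WT values. Slc25a35 was not tested with the filter at the median. Among the pairs 12 values changed sign, all in pairs that overlapped. Pairs that lay apart could not change sign with libraries left out. Slc25a39 minus Slc25a40 was -0.012 with quantile normalization. With libraries left out, singly or WT replicate 2 and KO replicate 1 together, the change ran from -1.23 to 0.24 for Slc25a24 minus Slc25a25, -0.25 to 0.27 for Slc25a16 minus Slc25a42, -0.79 to 0.11 for Slc25a14 minus Slc25a30, -0.26 to 0.078 for Slc25a12 minus Slc25a13 and -1.09 to 0.11 for Slc25a45 minus Slc25a47. The cause was not tested. Depth is unknown and limits the weakest carriers most.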
